A study of Mus musculus with 4 samples.

Results

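The genes described here are the xenobiotic receptors PXR (Nr1i2) and CAR (Nr1i3), the efflux pump gene Abcb1a and 6 cytochrome P450 genes, Cyp3a25, Cyp3a13, Cyp2b10, Cyp2c55, Cyp2c65 and Cyp2d26. They were taken by the gene symbol that the array's annotation gives each probe set, and all 9 were found, among 18193 genes in all, with 13 of the 45037 probe sets left once controls were set aside. RNA came from epithelial cells cut by laser from the proximal colon or the ileum of mice labelled C57/Bl6, either germ-free animals, which live without microbes, or wild type animals. Each of the 4 groups, germ-free colon, wild type colon, germ-free ileum and wild type ileum, was a pool of about 16000 cells from 4 mice on 1 array. The labels give no sex or age, and they mention hematoxylin staining for the germ-free tissue alone. Because a group is a single array, nothing below could be checked against replicates, no p-value was computed, and precision is limited by how few arrays there are. The set was chosen by earlier results from these same 4 arrays, their intensities and the differences between them, so its values are given as a description.

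PXR and CAR are nuclear receptors that sense foreign compounds, steroids and bile acids. PXR is activated by secondary bile acids and by an indole derivative that gut bacteria make, and CAR is held in the cytoplasm in a complex with chaperones until it is activated. Both bind DNA as partners of the retinoid X receptors, at pairs of short half-sites such as AGGTCA or AGTTCA, and both raise transcription of P450, conjugation and efflux genes in liver and gut. In the gut epithelium these P450 enzymes oxidise drugs, bile acids and fatty acids on their way in, and P-glycoprotein, the product of Abcb1a, pumps many of the same compounds back into the lumen.

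Intensities are quantile-normalized and on a linear scale. The floor was the median of all values, an intensity of 62.4. A value under it was set to it before a fold was taken, so a fold against such a value is a bound and is written "at least". Genes with either array of a comparison above the floor are called measured in it, and a difference of 2-fold or more was called. No gene's level is set against another gene's, since probe sets differ in how strongly they bind.

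Of the 9 genes, 1 was at least 2-fold lower in germ-free than in wild type colon (Cyp3a25) and 1 was at least 2-fold lower in germ-free than in wild type ileum (Cyp2c55), and none was 2-fold higher in either region. In colon 8 of the 9 were measured, and of all 11746 measured genes 4.52% were past 2-fold, 3.23% lower and 1.29% higher. In ileum all 9 were measured by their brightest probe set, and of 11750 genes 0.928% were past 2-fold, 0.698% lower and 0.230% higher. The receptor Nr1i2 differed by 1.08-fold in colon and 1.01-fold in ileum by its brightest probe set. The median log2 change over the measured genes was -0.25 in colon and 0.05 in ileum, against -0.01 and 0.03 over all measured genes. The colon median over all genes was 0.12 with median scaling and 0.09 in the values as deposited, so small colon changes are to be read against that shift.

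**Figure D1:**
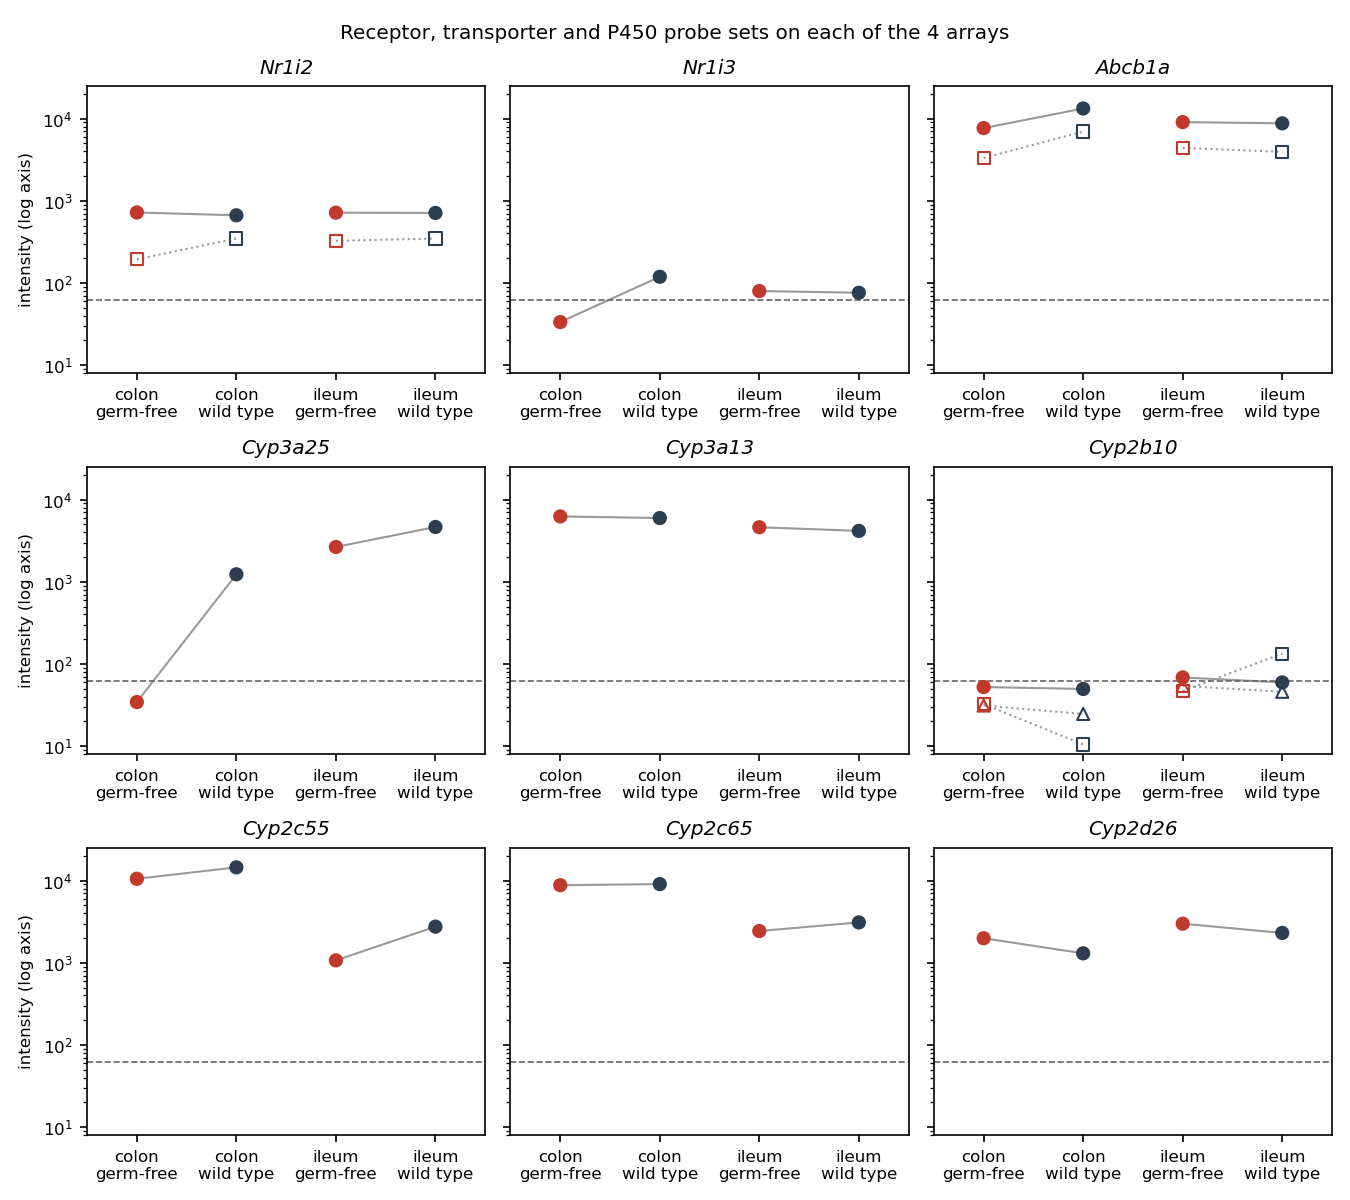
Intensity of every probe set of the 9 genes (y axis, log scale) on the 4 arrays, 1 array per group, with germ-free in red and wild type in dark blue. Filled symbols are the brightest probe set of a gene, open symbols its other probe sets, lines join the arrays of a region, and the dashed line is the floor of 62.4. Cyp3a25 lies under the floor in germ-free colon alone, and Cyp2c55 is lowest in germ-free ileum.

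The promoters of both P450 genes called above, of Cyp2c65, which adjoins Cyp2c55, and of Abcb1a are printed here because PXR and CAR act through DNA half-sites. They are RefSeq sequences of GRCm38.p6, from 250 bases before to 50 bases after the annotated start, in the direction of the gene: chr5:146009569-146009868 on the minus strand for Cyp3a25, chr19:39006769-39007068 on the plus strand for Cyp2c55, chr19:39060756-39061055 on the plus strand for Cyp2c65 and chr5:8566841-8567140 on the plus strand for Abcb1a. Capitals mark the half-sites AGGTCA and AGTTCA on either strand, CAAAGTCCA, a motif of the gut and liver factor HNF4, on either strand, and TATAAA on the gene's strand.
Cyp3a25: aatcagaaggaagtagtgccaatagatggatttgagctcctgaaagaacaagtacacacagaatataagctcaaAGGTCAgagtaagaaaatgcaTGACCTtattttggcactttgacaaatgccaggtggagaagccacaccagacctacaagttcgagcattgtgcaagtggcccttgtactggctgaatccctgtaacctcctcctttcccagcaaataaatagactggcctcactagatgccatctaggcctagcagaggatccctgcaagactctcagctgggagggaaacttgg
Cyp2c55: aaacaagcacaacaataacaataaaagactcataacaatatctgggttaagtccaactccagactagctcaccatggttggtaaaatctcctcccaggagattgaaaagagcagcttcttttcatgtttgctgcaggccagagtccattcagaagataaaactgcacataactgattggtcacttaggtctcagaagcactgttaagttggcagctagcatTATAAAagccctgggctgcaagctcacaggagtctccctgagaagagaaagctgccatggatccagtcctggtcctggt
Cyp2c65: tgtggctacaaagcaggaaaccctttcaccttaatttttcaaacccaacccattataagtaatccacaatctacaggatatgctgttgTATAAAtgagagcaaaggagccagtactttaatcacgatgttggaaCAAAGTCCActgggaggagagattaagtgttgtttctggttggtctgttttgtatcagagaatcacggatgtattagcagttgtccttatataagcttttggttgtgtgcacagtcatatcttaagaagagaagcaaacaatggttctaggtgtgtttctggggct
Abcb1a: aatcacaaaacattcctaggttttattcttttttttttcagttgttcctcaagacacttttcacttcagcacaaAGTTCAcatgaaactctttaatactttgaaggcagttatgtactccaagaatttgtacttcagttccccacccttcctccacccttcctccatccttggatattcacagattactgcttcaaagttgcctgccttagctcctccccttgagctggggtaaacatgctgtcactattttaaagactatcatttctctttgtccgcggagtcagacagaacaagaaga

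The Cyp3a25 window held AGGTCA beginning 176 bases before the start, and again on the opposite strand, where it is printed above as TGACCT, the first letter of which lies 155 bases before the start. The Abcb1a window held AGTTCA beginning 176 bases before the start. Among all 27025 promoters in the table, 1 per gene, 16.0% held AGGTCA and 14.0% held AGTTCA on either strand, and of the 9 genes here 1 held the one and 1 the other. No window of the 9 genes held a pair of these half-sites as a direct repeat 3 or 4 bases apart or as an everted repeat 6 bases apart, which 0.0111%, 0.0259% and 0.0111% of all promoters held. CAAAGTCCA was in the Cyp2c65 window, 116 bases before the start, and in 0.477% of all promoters. TATAAA lay 29 bases before the start of Cyp2c55 and 162 bases before that of Cyp2c65, and 8.88% of all promoters held it. These matches are letters in a short window and say nothing of binding, and receptor sites can lie outside it.

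Nr1i2, which encodes PXR, was near constant by its brightest probe set in the quantile-normalized values. It read 721 in germ-free colon, against 666 in wild type colon, and 717 in germ-free ileum, against 712 in wild type ileum. The log2 change was 0.11 in colon and 0.01 in ileum, and the range over the 4 arrays was 0.11. The colon change was 0.29 as deposited and 0.32 with median scaling. A second probe set designed from the same transcript read 194 in germ-free colon, against 348 in wild type colon (a log2 change of -0.84), and 325 in germ-free ileum, against 347 in wild type ileum. The 2 probe sets therefore disagreed in colon, at log2 changes of 0.11 and -0.84, and the direction there is unsettled. The SD between probe sets in that comparison was 0.29, stated for a single probe set's change. It came from the 2 brightest probe sets of each of 2217 genes, Nr1i2 included, where both averaged above the 75th percentile of all values. With the mean of both, the colon change was -0.36. The SD between probe sets is taken within a pair of arrays, so it holds no variation between mice or between pools.

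Nr1i3, which encodes CAR, was dim on all arrays. It read 33.4 in germ-free colon, against 119 in wild type colon, and was at least 1.90-fold lower, just short of the 2-fold call. In ileum it read 79.7 in germ-free, against 75.9 in wild type. Germ-free colon was thus the sole array under the floor, and no array reached the pooled 75th percentile of 259. Because the germ-free colon value is floored, the difference depends on the floor, and was a log2 change of -1.83 with no floor, on which the gene would be called.

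Abcb1a, which encodes the drug efflux pump, was lower in germ-free than in wild type colon by both its probe sets. The brighter one read 7682 in germ-free colon, against 13314 in wild type colon (1.73-fold lower), and the other 3326, against 6971 (2.10-fold lower). In ileum the brighter one read 9085 in germ-free, against 8778 in wild type, and the other 4401, against 3952. The wild type colon array was the highest for both, and the other 3 arrays lay within a narrow span. By the brightest probe set Abcb1a ranked 707 from the lowest among the 11746 colon changes. Its neighbour Abcb1b, a second P-glycoprotein gene, was under the floor on all 4 arrays.

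Cyp3a25, a member of the Cyp3a subfamily that oxidises drugs, steroids and bile acids, had the widest spread of the 9 genes. It read 34.3 in germ-free colon, against 1234 in wild type colon, and 2655 in germ-free ileum, against 4650 in wild type ileum. Germ-free colon lay under the floor while the other 3 arrays were all above the 75th percentile. In colon it was at least 19.8-fold lower in germ-free mice, the second lowest of 11746 changes. In ileum it was 1.75-fold lower, ranked 149 from the lowest of 11750. The germ-free change in colon minus that in ileum was -3.496 log2 units or lower. The next gap by a brightest probe set was that of Nr1i3, at -0.9984 or lower, also a bound. As deposited, before quantile normalization, the colon intensities were 33.6 in germ-free and 1196 in wild type mice.

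Cyp3a13, another member of the subfamily, had no such difference. It read 6251 in germ-free colon, against 5975 in wild type colon, and 4618 in germ-free ileum, against 4170 in wild type ileum. The log2 changes were 0.07 in colon (-0.02 as deposited) and 0.15 in ileum, both below the SD between probe sets (0.29 in colon and 0.21 in ileum). Both genes lie on chromosome 5 of the mouse, but Cyp3a13 is not next to Cyp3a25, whose neighbours in the RefSeq table are Cyp3a11 and Cyp3a59.

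Cyp3a11, the main drug-inducible Cyp3a enzyme of mouse liver, was looked at for its place beside Cyp3a25 after its values had been seen. It read 37.6 in germ-free colon, against 194 in wild type colon (at least 3.11-fold lower), and 1810 in germ-free ileum, against 2182 in wild type ileum. Like Cyp3a25, it was under the floor in germ-free colon alone. Cyp3a44, also named after its values were seen, read 745 in germ-free colon, against 666 in wild type colon, and 1319 in germ-free ileum, against 1405 in wild type ileum. Cyp3a16 was under the floor on all 4 arrays. Cyp3a genes are close copies of each other, and Cyp3a57 and Cyp3a59 have no probe set named here, so transcripts of these copies could add to a probe set's signal.

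Cyp2c55, a P450 of the colon that makes a hydroxy acid from arachidonic acid and is induced through PXR and CAR in mouse liver, had its largest germ-free difference in ileum. It read 1072 in germ-free ileum, against 2756 in wild type ileum (2.57-fold lower), and 10555 in germ-free colon, against 14524 in wild type colon (1.38-fold lower). Both germ-free arrays were below the wild type array of their region. In ileum the change ranked 37 from the lowest of 11750. With a 3-fold threshold it would not be called.

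Cyp2c65, the next gene along chromosome 19, shifted less. It read 2439 in germ-free ileum, against 3102 in wild type ileum (1.27-fold lower), and 8808 in germ-free colon, against 9085 in wild type colon (1.03-fold lower). The colon difference was within the spread between probe sets. The ileal log2 change of -0.35 was past the SD of 0.21, which holds no variation between mice or pools. It ranked 1125 from the lowest of 11750. Its single probe set is of a kind that can match several transcripts, and the neighbouring copy Cyp2c66 has no probe set named here.

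Cyp2b10, the classical CAR target of mouse liver, was at or near the floor. Its brightest probe set was above the floor in germ-free ileum alone, at 68.5, against 59.5 in wild type ileum, and read 52.3 in germ-free colon, against 49.6 in wild type colon. A second probe set read 46.8 in germ-free ileum, against 134 in wild type ileum (at least 2.14-fold lower), and was under the floor on both colon arrays. The third was under the floor on all 4 arrays. The probe sets disagreed in ileum, and no germ-free difference of Cyp2b10 can be read at these intensities.

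Cyp2d26, of the Cyp2d subfamily, was the one P450 here that stood higher in germ-free mice by more than the spread between probe sets in both regions. It read 1992 in germ-free colon, against 1304 in wild type colon (1.53-fold higher), and 2994 in germ-free ileum, against 2311 in wild type ileum (a log2 change of 0.37). These are below the 2-fold call, with ranks of 661 from the highest in colon and 996 in ileum. The spread between probe sets holds no variation between mice.

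Between regions, 3 of the 9 genes were past 2-fold, in both states. Cyp3a25 was higher in ileum than in colon, and Cyp2c55 and Cyp2c65 were lower in ileum. In germ-free mice 13.2% of 11986 measured genes were past 2-fold, 5.88% lower and 7.37% higher in ileum. In wild type mice 12.0% of 12000 were, 5.93% lower and 6.04% higher in ileum. The germ-free and the wild type regional comparison share no array, though each shares both of its arrays with the germ-free comparisons above.

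Cyp3a25 read 2655 in germ-free ileum, against 34.3 in germ-free colon, and was at least 42.5-fold higher, 12 from the highest of 11986 differences. In wild type mice it read 4650 in ileum, against 1234 in colon (3.77-fold higher). Cyp2c55 was 9.85-fold lower in germ-free ileum than in germ-free colon, and 5.27-fold lower in wild type ileum than in wild type colon. Cyp2c65 was 3.61-fold lower in germ-free ileum than in germ-free colon, and 2.93-fold lower in wild type ileum than in wild type colon. The 2 neighbouring Cyp2c genes were therefore both lower in ileum, with the wider gap on the germ-free arrays.

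The other genes differed less between ileum and colon. Cyp2d26 was higher in ileum by log2 differences of 0.59 in germ-free and 0.83 in wild type mice, while Cyp3a13 was 1.35-fold lower in germ-free ileum and 1.43-fold lower in wild type ileum. Nr1i2 differed by a log2 value of -0.01 in germ-free and 0.10 in wild type mice (-0.18 and 0.15 as deposited). Abcb1a was 1.18-fold higher in germ-free ileum than in germ-free colon, but 1.52-fold lower in wild type ileum than in wild type colon, by its brighter probe set. The second probe set went the same ways, at log2 differences of 0.40 in germ-free and -0.82 in wild type mice. Nr1i3 likewise had a difference of at least 0.35 in germ-free mice and of -0.65 in wild type mice.

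**Figure D2:**
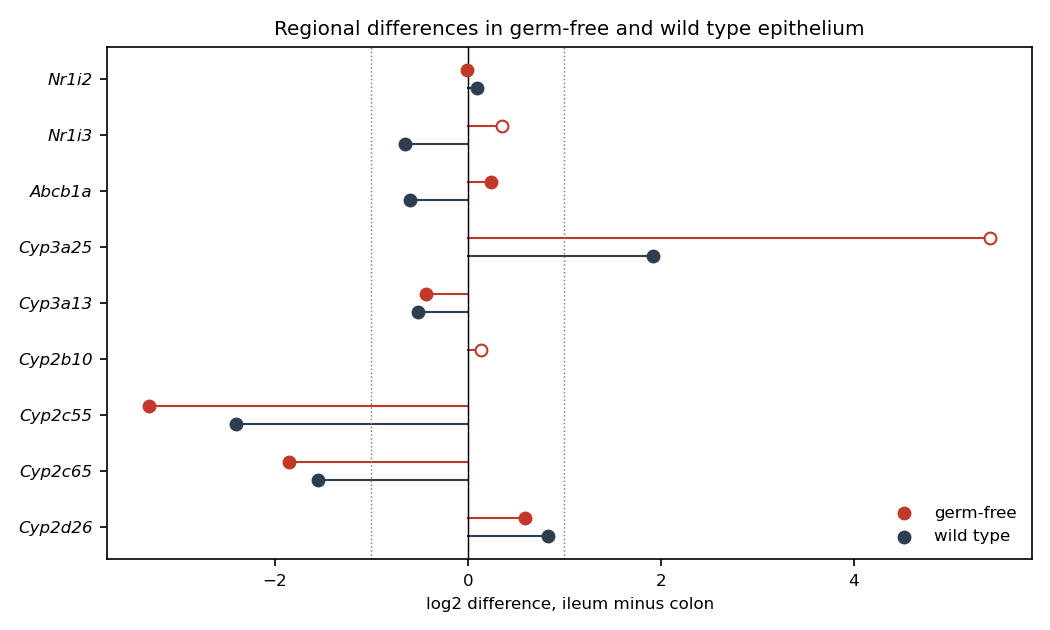
Log2 difference, ileum minus colon, of each of the 9 genes by its brightest probe set in germ-free (red) and wild type (dark blue) epithelium, with bounds as open circles and dotted lines at 2-fold. Cyp3a25 lies to the right in both states, Cyp2c55 and Cyp2c65 to the left, and no wild type value is shown for Cyp2b10, which was under the floor on both arrays.

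The rest of the Cyp3a, Cyp2b, Cyp2c and Cyp2d genes on the array, taken by symbol, went either way. Of 22 such genes 13 were measured in colon, of which 2 were called lower in germ-free mice (Cyp2c38 and Cyp3a11) and 2 higher (Cyp2d9 and Cyp2d10), and the median log2 change was 0.16. Cyp2c38 read 107 in germ-free colon, against 379 in wild type colon (3.53-fold lower), and 449 in germ-free ileum, against 424 in wild type ileum. Cyp2d10 read 2220 in germ-free colon, against 987 in wild type colon (2.25-fold higher), and was under the floor on both ileum arrays. Cyp2d9 read 678 in germ-free colon, against 240 in wild type colon (2.83-fold higher), and was likewise under the floor in ileum. In ileum 0 of 10 measured genes of this group were past 2-fold in either direction, and the median was -0.10.

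Within the Cyp2d and Cyp3a subfamilies, genes differed in which region was higher. Cyp2d34, named after its values were seen, was at least 17.8-fold lower in germ-free ileum than in germ-free colon and at least 15.6-fold lower in wild type ileum than in wild type colon. Cyp2d10 was at least 35.6-fold lower in germ-free ileum and at least 15.8-fold lower in wild type ileum, whereas Cyp2d26 was higher in ileum in both states. In the Cyp3a subfamily, Cyp3a11 was at least 29.0-fold higher in germ-free ileum and 11.2-fold higher in wild type ileum, and Cyp3a44 was 1.77-fold higher in germ-free ileum and 2.11-fold higher in wild type ileum, while Cyp3a13 was lower in ileum in both states.

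A wider P450 list took genes by symbol, of the form Cyp, number, letter and number, from probe sets with 1 gene symbol. P450 genes with other symbols or only shared probe sets are not in it. Other than the 6 first named it held 65 genes, those 22 included. Of these, 35 were measured in colon, with 3 called higher, 3 called lower and a median of -0.03. In ileum 30 were measured, with 1 higher and 0 lower, and a median of -0.01. The gene higher in both regions was Cyp1a1, best known as induced through the aryl hydrocarbon receptor, at 370 in germ-free colon, against 17.9 in wild type colon, and 282 in germ-free ileum, against 53.0 in wild type ileum. It was at least 5.92-fold higher in germ-free colon and at least 4.52-fold higher in germ-free ileum, and it also stands in the list of PXR or CAR targets below. Cyp26b1, which breaks down retinoic acid, read 31.9 in germ-free colon, against 266 in wild type colon (at least 4.25-fold lower).

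The partners of the receptors showed no difference past 2-fold with the germ-free state. All 14 genes of this list on the array were measured, and 0 were called in colon or in ileum, with medians of 0.04 and 0.11. Rxra, the obligate partner of PXR and CAR, read 1363 in germ-free colon, against 1145 in wild type colon, and 1342 in germ-free ileum, against 1542 in wild type ileum. Hnf4a, a liver and gut factor that acts together with PXR and CAR on P450 genes, read 7080 in germ-free colon, against 7432 in wild type colon, and 6304 in germ-free ileum, against 6869 in wild type ileum. The coactivator genes Ncoa2 and Ep300 had log2 changes of 0.12 and 0.51 in colon and of 0.11 and 0.14 in ileum. Of the 6 genes of the cytoplasmic complex that holds CAR, 0 were called in either region, with medians of -0.15 in colon and 0.04 in ileum.

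P450 enzymes depend on electron transfer and heme supply. Of 10 measured genes of that list 0 were called in colon and 1 in ileum, with medians of -0.27 and -0.02. Alas1, the first enzyme of heme synthesis, read 571 in germ-free colon, against 801 in wild type colon (a log2 change of -0.49), and 522 in germ-free ileum, against 841 in wild type ileum (1.61-fold lower). Urod, a later enzyme of that synthesis, was 1.64-fold lower in germ-free colon and 1.06-fold higher in germ-free ileum, and both genes are named after their values were seen. The called one was Cpox, of heme synthesis, at 240 in germ-free ileum, against 114 in wild type ileum (2.10-fold higher), which lies under the 75th percentile on both arrays and is named, after its value was seen, because it is the one called. Cyb5a, the cytochrome that passes electrons to P450 enzymes, had log2 changes of -0.07 in colon and -0.05 in ileum. Pgrmc1, a heme-binding partner of P450 enzymes, had -0.25 and 0.01, Cyb5r3 -0.49 and 0.02 and Fech, which inserts iron into heme, -0.33 and -0.07.

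Of the 25 measured conjugation and other enzyme genes known as targets of PXR or CAR, 4 were called lower and 1 higher in germ-free colon, with a median of -0.24. The carboxylesterase gene Ces2a had a log2 change of -4.32, at 406 in germ-free colon, against 8119 in wild type colon, and the glutathione transferase genes Gstt1 and Gstm3 were 4.40-fold and 2.47-fold lower. Ephx1, an epoxide hydrolase gene named after its value was seen because it completes these 4, was 2.32-fold lower but dim, at 65.5 in germ-free colon, against 152 in wild type colon. In ileum 1 of 25 was higher (Cyp1a1) and 1 lower (Ces2a, 2.62-fold), with a median of 0.12. Of the transporter genes known as targets, 0 of 6 measured in colon and 0 of 5 in ileum were called, with medians of -0.18 and -0.16.

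Other nuclear receptors of the gut had 14 measured genes in colon, 1 called higher and 1 called lower in germ-free mice, with a median of 0.11. Hnf4g read 560 in germ-free colon, against 268 in wild type colon (2.09-fold higher), and Pparg, a receptor for fatty acid derivatives, read 876 in germ-free colon, against 2215 in wild type colon (2.53-fold lower). In ileum 0 of 13 were called, with a median of 0.07. All the lists together held 109 measured genes in colon, of which 4 were 2-fold or more higher and 8 were 2-fold or more lower, and 102 in ileum, of which 2 were higher and 1 lower. The 4.52% and 0.928% given above for all genes are the background for these counts, and nothing particular to the lists is read from them. Every one of the 15 differences past 2-fold in genes named from the lists stayed past 2-fold in the same direction in the values as deposited and with median scaling.

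**Figure D3:**
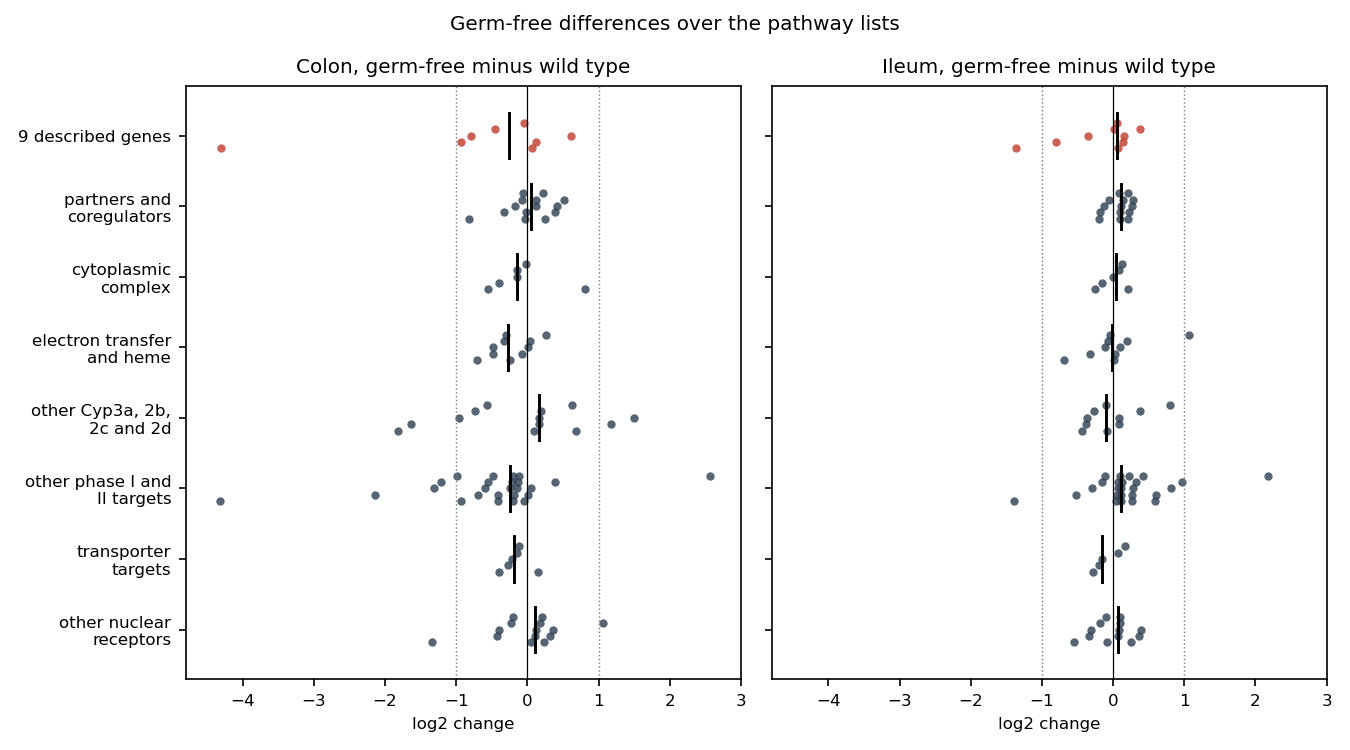
Log2 change, germ-free minus wild type, of the measured genes in colon (left) and ileum (right), for the 9 genes described (red) and for 7 lists of the pathway (dark blue). Each point is a gene by its brightest probe set, black bars are medians, points are spread vertically for sight only, and dotted lines mark 2-fold. Most points lie within 2-fold of 0 in both regions.

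Likeness of pattern was measured as the Euclidean distance over the 4 arrays between floored log2 values centred on each gene's mean, among 1858 bright genes with a range of at least 1 log2 unit. Genes known only by a clone name were skipped when the closest were picked, so a closer gene of that kind may exist. The genes most like Cyp3a25 were Abcg5, at a distance of 0.44, then Reg3g at 1.69 and Abcg8 at 1.74. Abcg5, which encodes one subunit of a sterol efflux pump, read 59.3 in germ-free colon, against 838 in wild type colon, and 2534 in germ-free ileum, against 3708 in wild type ileum. Abcg8, which encodes the other subunit, read 94.7 in germ-free colon, against 425 in wild type colon, and 1702 in germ-free ileum, against 1622 in wild type ileum. The genes closest to Cyp2c55 were Rnf186 (0.48), Parm1 (0.52) and Slc9a3 (0.64). Those closest to Abcb1a were Hpd (0.20), Srrm3 (0.22) and Arhgef25 (0.24).

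For Cyp2c65 the closest were Fam214a (0.08), Ptprr (0.09) and Arsb (0.10), for Cyp2d26 Skp2 (0.05), Nr4a2 (0.08) and Cks1b (0.09), and for Cyp3a13 Hoxb5 (0.32), Med13l (0.33) and Ptk2b (0.33). Nr1i2 varied too little for a gene of such range to resemble it, and its closest, Czib, Ifnlr1 and Epb41l3, were all at 0.66. Among the described genes above the 75th percentile on any array, Cyp3a13 and Nr1i2 were the closest pair (0.53), and Cyp3a25 and Cyp2c55 the farthest apart (7.07). With 4 arrays and many genes, close patterns also arise without any relation.

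**Figure D4:**
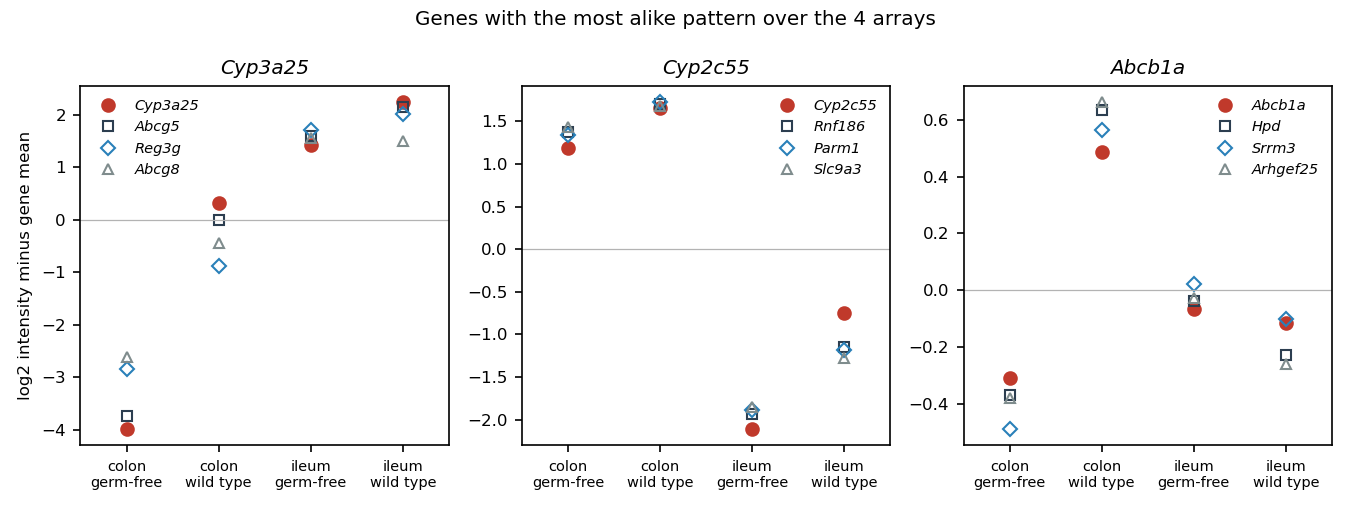
Log2 intensity, floored and centred on each gene's mean (y axis), on the 4 arrays for Cyp3a25, Cyp2c55 and Abcb1a (filled red circles) and the 3 genes with the most alike pattern for each (open symbols). Abcg5 lies near Cyp3a25 on all arrays, and the panels differ in the scale of the y axis.

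Some measures of tissue and RNA moved with these comparisons. Of 11 measured colonocyte markers 2 were at least 2-fold lower in germ-free colon (Aqp8 and Slc37a2), and the summed intensity of all 11 was 78582 in germ-free and 78680 in wild type colon. Of 10 measured absorptive enterocyte markers 2 were at least 2-fold higher there (Apoa1 and Dpp4), and the sum over the list of 13 was 32638 in germ-free and 27720 in wild type colon. The colonocyte sum holds very bright genes: Saa1 read 14149 in germ-free colon, against 8267 in wild type colon, while Aqp8 was 7.14-fold lower and Slc37a2 at least 5.04-fold lower. In ileum Saa1 was 6.25-fold lower in germ-free mice. Hepatocyte markers, of which 9 are on the array, summed to 876 in germ-free and 829 in wild type colon, and to 4906 in germ-free and 4570 in wild type ileum. Among them Apoc3 was at least 3.09-fold higher and Ambp 2.22-fold lower in germ-free colon, and 0 were called in ileum. Cps1, at 2235 in germ-free and 2377 in wild type ileum, and Apoc3, at 2017 in germ-free and 1630 in wild type ileum, made up most of the ileal sum, while Fgb and Fgg were under the floor on all arrays and Alb did not exceed 87.6.

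Tuft cell markers summed to 539 in germ-free and 900 in wild type colon, with 2 of 5 measured called lower (Dclk1 and Trpm5), and to 564 in germ-free and 702 in wild type ileum, with Gfi1b and Pou2f3 under the floor on all arrays. Paneth cell markers summed to 850 in germ-free and 1036 in wild type colon, and to 11230 in germ-free and 17070 in wild type ileum, where 1 of 4 measured was called lower (Itln1). Myeloid markers summed to 2252 in germ-free and 2462 in wild type colon, and to 3294 in germ-free and 4000 in wild type ileum, with Adgre1 called lower in colon and Lyz2 in ileum. Of the goblet, enteroendocrine and stem cell markers measured, 0 were called in either germ-free comparison.

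The sums of endothelial markers were 475 in germ-free and 1005 in wild type colon, with 2 of 5 measured at least 2-fold lower, and Pecam1, Vwf and Esam were under the floor on all arrays. In ileum the endothelial sums were 607 in germ-free and 640 in wild type mice, with 0 of 5 measured called. Plasma and B cell markers summed to 11225 in germ-free and 14898 in wild type colon, and to 12570 in germ-free and 22590 in wild type ileum, with 2 measured markers at least 2-fold lower in each region. Jchain was 7.87-fold lower in germ-free colon and 6.83-fold lower in germ-free ileum, and Igha 9.19-fold and 4.21-fold lower. The sums also hold bright genes that were not called. Sdc1 read 6464 in germ-free and 4852 in wild type colon, and 5252 and 5003 in ileum. Xbp1 read 3843 in germ-free and 3628 in wild type colon, and 4634 and 5194 in ileum. T and intraepithelial lymphocyte markers summed to 867 in germ-free and 1319 in wild type colon, and to 1280 in germ-free and 1989 in wild type ileum, with 2 of 5 measured markers called lower in each region and Cd3e, Cd3g and Cd3d under the floor throughout. Fibroblast and smooth muscle markers summed to 4841 in germ-free and 7255 in wild type ileum, with 4 of 12 measured at least 2-fold lower, and Myh11 and Cnn1 under the floor on all arrays. In colon this list summed to 4350 in germ-free and 4599 in wild type mice. There 0 of 8 measured were called lower and 1 was called higher (Pdgfrb). In ileum, beside the lower Cyp2c55, the absorptive enterocyte sum was 73578 in germ-free and 73514 in wild type mice. In the values as deposited, the log2 ratio of 5' to 3' Gapdh control signal, germ-free minus wild type, was -0.48 in colon and -1.10 in ileum. For Actb it was -0.12 and -1.20, and for Pcx -0.43 and -0.28. Ileum minus colon, the Gapdh, Actb and Pcx ratios were 0.64, 1.46 and -0.29 in wild type mice and 0.01, 0.38 and -0.14 in germ-free mice. The median log2 difference of the 18S ribosomal RNA probe sets, germ-free minus wild type, was -1.23 in colon and -0.93 in ileum. The part of these in the results above was not tested. In such bulk samples fewer cells of a type and less RNA per cell cannot be told apart.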

How the data were processed

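The authors deposited probe set intensities on a linear scale for 4 mouse arrays, which the series' design text credits to dCHIP2004, with its options not given. Per the labels' protocols, each array's 40 ng of RNA went through 2 rounds of amplification. The depth of an array has no count, so precision is limited by 1 array per group. The 64 control probe sets were set aside, and the remaining 45037 were quantile-normalized on the log2 scale (Python 3.11.15, numpy 2.4.6, pandas 2.3.3), with values under 1 set to 1. Of these, 34945 had 1 gene symbol, 932 several and 9160 none here. Genes were represented by their brightest probe set by mean log2 intensity, and values under the pooled median were floored. The genes and the 8 pathway and 13 marker lists were chosen with earlier results of these data known. Named list genes were those past 2-fold in a germ-free comparison with the brighter array above the pooled 75th percentile (at most 6 per list), and up to 4 partner and electron transfer genes above it on all arrays. Symbols were updated through Entrez identifiers in a RefSeq table of GRCm38.p6. Promoters of all 9 genes matched by symbol, with the first listed start used for Cyp3a25, which has 2. The steps were tested on simulated arrays, and 9 alternatives were tried.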

Additional observations from a re-analysis of the deposited data

Results flagged for a closer look

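For 2 genes the germ-free change had opposite signs in colon and ileum in the quantile-normalized values, which with 1 array per group was not tested. The change in colon minus that in ileum was -0.9984 log2 units for Nr1i3, which is a bound since the germ-free colon value lies under the floor, and -0.843 for Abcb1a. The ileal changes of 0.07 and 0.05 were both below the SD of 0.21 between probe sets in that comparison. That SD was taken from bright probe sets only. Nr1i3 was dim, at 79.7 in germ-free and 75.9 in wild type ileum, so the SD may not hold for it. As deposited, the ileal change of Abcb1a was -0.01, the same sign as in colon. Cyp3a13 (-0.02 in colon and 0.08 in ileum) and Nr1i2 (0.29 and -0.03) then had opposite signs.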

How the results depend on the processing

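No paired analysis was possible because each group has 1 array. In the counts of the 9 genes past 2-fold, Cyp3a25 and Cyp2c55 stayed on the same side under every change of scaling, floor or probe set. In colon the count of 1 became 2 with a floor at the pooled 25th percentile or none (Nr1i3 joined) and 4 at 1.5-fold, and in ileum 1 became 0 at 3-fold and 2 at 1.5-fold. Between wild type regions 3 became 6 at 1.5-fold. The count of genes whose germ-free changes differ past the threshold between regions was 1, and 2 with the 25th percentile floor, no floor or the mean of probe sets, and 4 at 1.5-fold. Over the pathway lists the count was 12 in colon (20 with the lower floor, 7 with a floor at the 75th percentile, 28 with none, 6 at 3-fold, 27 at 1.5-fold), 3 in ileum (6, 1, 15, 1 and 9), 31 between wild type regions (20 at 3-fold, 47 at 1.5-fold) and 30 between germ-free regions (50 with no floor, 17 at 3-fold, 49 at 1.5-fold). These follow from how many genes a floor or threshold admits. Of 227 values of single genes under alternatives 214 moved by less than the SD between probe sets, 13 by more and 0 called ones changed sign. The Cyp3a25 colon change ran from -5.17 with no floor to -2.25 with the 75th percentile floor, and as a bound it moves with the floor. The median of all colon changes was -0.01 here, 0.12 with median scaling and 0.09 as deposited, where genes at least 2-fold higher made up 28.6%, 56.3% and 51.8% of those called. For germ-free ileum against colon the medians were 0.04, -0.06 and -0.11 and those shares 55.6%, 42.4% and 38.5%. Leaving out probe sets whose probes can hit several transcripts leaves Cyp2c65 with no value.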
